A study of Homo sapiens with 34 samples.

Results

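*PLAT*, *AKAP12*, and *CDYL* were picked for a 24 hr cosine in their RNA. By the rule given below, they were the only genes outside the circadian clock to pass in both control cells and cells treated with 6-aminonicotinamide (6AN). They are 3 of 28690 loci measured and of the 14678 expressed loci, which had a mean of at least 0.7 FPKM (fragments per kilobase of transcript, scaled to the mapped fragments of the library). They were chosen by the R2 of the cosine on log2(FPKM + 1), which is the share of the variation over time that the wave takes up and which had to exceed 0.641 in each condition. R2, peak time, and amplitude are therefore given as a description, with no test.

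The cells were U2OS, a human osteosarcoma line, in a single derivative line in which the *Bmal1* promoter drives luciferase, and both conditions used this line after synchronization with dexamethasone. Control cells received DMSO, the solvent, and treated cells 5 mM 6AN, which inhibits the NADPH-producing enzymes of the pentose phosphate pathway. RNA was collected every 4 hr at labelled times from 0 to 44 hr, giving 12 libraries per condition. Times here are those of the labels, and how long after dexamethasone or 6AN the label of 0 hr falls is not given here. With 1 library per condition and time point, errors are jackknife standard errors (SE) over time points and do not hold the variation between cultures. No read totals were given. Depth was inferred from the most frequent FPKM ratio between libraries of loci detected in only some of them, taken as 1 read against 1 read. Relative to the median library of the same condition, this estimate ranged from 0.581 to 1.31 in control and from 0.696 to 1.55 in 6AN. Of 9 markers of the bone lineage, 7 were expressed, *RUNX2* among them, *COL1A2* and *SP7* were not, and the leukocyte and endothelial markers *PTPRC* and *PECAM1* were below the minimum, as was the epithelial *CDH1*, while *EPCAM* averaged 1.02 and 0.734 FPKM.

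In the circadian clock, BMAL1 (gene *ARNTL*) and CLOCK bind E-box DNA and switch on genes such as *PER3*, *CRY1*, *NR1D1*, *NR1D2*, and *TEF*, whose products feed back on the cycle. Genes further out can follow this cycle through E-boxes or through other factors that it drives. *PLAT* encodes tissue plasminogen activator, the secreted protease that turns plasminogen into plasmin. *AKAP12* encodes a scaffold that holds protein kinase A and protein kinase C near the plasma membrane, and *CDYL* a chromodomain protein that works with histone methyltransferases to silence genes.

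The RefSeq promoters of *AKAP12* are shown because all 3 held the E-box CACGTG. RefSeq (GRCh38.p14) windows from 250 bases before to 50 after each transcript start were matched for *AKAP12* and for *CDYL*, with 3 windows each, and none was used for *PLAT*. The lines below give the 250 bases before each *AKAP12* start on the plus strand, 5′ to 3′, with the E-box in capitals.

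AKAP12 chr6:151239717-151239966: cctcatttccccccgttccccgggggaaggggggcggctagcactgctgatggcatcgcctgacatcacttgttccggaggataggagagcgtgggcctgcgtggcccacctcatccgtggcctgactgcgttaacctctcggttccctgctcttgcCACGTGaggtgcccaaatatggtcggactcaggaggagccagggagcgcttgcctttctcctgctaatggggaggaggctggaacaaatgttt
AKAP12 chr6:151325281-151325530: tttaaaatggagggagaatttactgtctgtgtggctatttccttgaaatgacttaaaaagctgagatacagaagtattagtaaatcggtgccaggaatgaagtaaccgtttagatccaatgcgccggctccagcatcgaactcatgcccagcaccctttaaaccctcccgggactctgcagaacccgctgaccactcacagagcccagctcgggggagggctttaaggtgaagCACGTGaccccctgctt
AKAP12 chr6:151341456-151341705: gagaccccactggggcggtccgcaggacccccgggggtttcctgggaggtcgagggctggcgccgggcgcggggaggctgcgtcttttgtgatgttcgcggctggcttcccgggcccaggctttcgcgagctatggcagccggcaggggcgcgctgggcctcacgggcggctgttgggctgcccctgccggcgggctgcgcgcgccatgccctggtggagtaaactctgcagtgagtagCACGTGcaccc

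The E-box began at positions -93, -17, and -11 from the respective start. The first window ends just upstream of the deposited locus (hg38 chr6:151239998-151358561), and the other starts lie inside it. The deposited annotation lists 2 start sites for *AKAP12* and 4 for *CDYL*, against 3 RefSeq windows each. Which starts these cells use was not analysed here. CACGTG was present in 7.26% of all 35116 windows, and of 1019 genes with 3 windows, 6 (0.589%) held it in all 3. None of the *CDYL* windows held it. The other sequences searched on both strands, which were CACGTT, TTATGNAA (D-box), AGGTCA (nuclear receptor element), TGACGTCA (cyclic AMP element), and the palindromic glucocorticoid response element, were in 5.34%, 3.3%, 13.8%, 1.85%, and 0.00285% of all windows. None of these 5 was found in a window of *AKAP12* or *CDYL*.

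*PLAT* had the highest level and the widest swing of the 3 genes. In control it ranged from 66.9 FPKM at 4 hr through a median of 90.4 to 124 FPKM at 12 hr, and it was again highest at 36 hr with 117 FPKM. Under 6AN it ranged from 60.4 FPKM at 36 hr through a median of 91.0 to 181 FPKM at 0 hr, and in the second cycle it was highest at 28 hr with 114 FPKM. In the second cycle the high point in 6AN fell at the hour of the low point in control, 28 hr, while in the first cycle they fell at 0 and 4 hr, and the ranges of the conditions overlapped. The cosine peaked at 14.1 hr (SE 0.62) in control and at 1.59 hr (SE 0.86) in 6AN, with R2 of 0.788 and 0.724. Peak to trough on the log2 scale was 0.59 (SE 0.13), a 1.51-fold swing, in control and 1.07 (SE 0.25), a 2.10-fold swing, in 6AN. The 6AN wave ran on a falling level, since mean FPKM in the second cycle was lower than in the first by a log2 ratio of -0.44, against -0.01 in control.

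*AKAP12* had a mean level 1.78-fold lower in 6AN than in control, with a shallow wave in both. In control it ranged from 20.2 FPKM at 8 hr through a median of 24.4 to 27.4 FPKM at 16 hr, and in 6AN from 11.3 FPKM at 20 hr through a median of 12.9 to 16.7 FPKM at 0 hr. The highest 6AN value was below the lowest control value. The cosine peaked at 16.5 hr (SE 1.06) in control and at 2.79 hr (SE 1.16) in 6AN, with R2 of 0.653 and 0.681. Peak to trough was 0.29 (SE 0.08) in control and 0.41 (SE 0.08) in 6AN on the log2 scale. In the second cycle of each condition the span of the measured values narrowed, from 1.36-fold to 1.15-fold in control and from 1.49-fold to 1.195-fold in 6AN.

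*CDYL* had the lowest level in control and the smallest swing. In control it ranged from 9.09 FPKM at 28 hr through a median of 10.5 to 11.6 FPKM at 16 hr, and in 6AN from 9.93 FPKM at 32 hr through a median of 11.5 to 13.2 FPKM at 16 hr. In both conditions the first cycle was highest at 16 hr, and the second at 44 hr in control and 40 hr in 6AN. The cosine peaked at 18.2 hr (SE 0.83) in control and at 17.0 hr (SE 0.995) in 6AN, with R2 of 0.749 and 0.641. Peak to trough was 0.22 (SE 0.05) and 0.25 (SE 0.07) on the log2 scale. For scale, the median peak to trough over all expressed loci was 0.15 in control and 0.16 in 6AN, and the median R2 was 0.138 and 0.130.

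**Figure D1:**
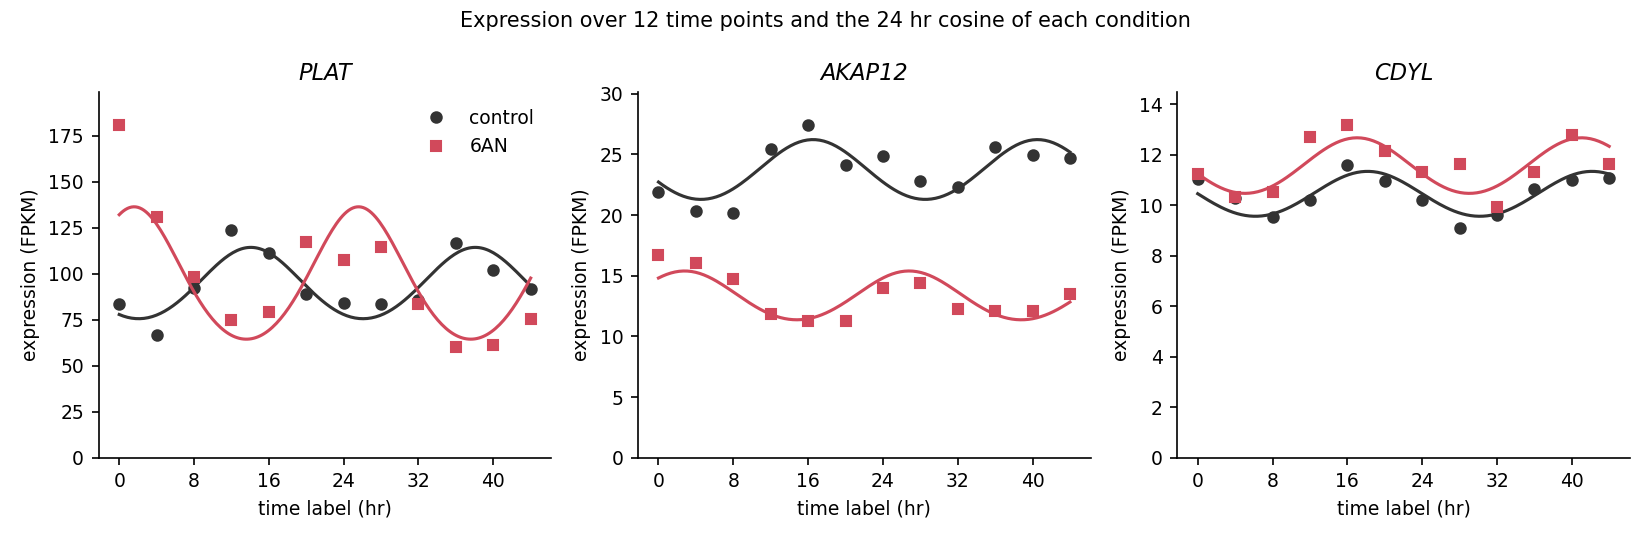
Expression in FPKM (y axis, from 0) of *PLAT*, *AKAP12*, and *CDYL* against the labelled time in hr, 1 library per point, for control (circles) and 6AN (squares), with the 24 hr cosine fitted on the log2 scale as a line. The *PLAT* and *AKAP12* waves are close to opposite between conditions and those of *CDYL* overlap in time, and all *AKAP12* values in 6AN, up to 16.7 FPKM, lie under those of control, from 20.2 FPKM.

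FPKM is scaled to transcript length, so levels of the genes can be set in order. In control the order was *PLAT*, *AKAP12*, *CDYL*, at all 12 time points and with no overlap of their ranges. In 6AN *PLAT* again lay above the others throughout, while *AKAP12* was above *CDYL* at 8 of 12 time points and their ranges overlapped.

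The R2 threshold was passed by 137 expressed loci in control (0.933%), by 162 in 6AN (1.1%), and by 9 in both (0.0613%). These shares only describe the choice of the genes. The threshold is the 0.01 level of an F test, and the shares in each single condition lie near it. About that share would pass without any wave. The paper, with another method, RAIN, called more transcripts rhythmic in both conditions. By R2, *PLAT* ranked 18 in control and 61 in 6AN, *AKAP12* ranked 115 and 105, and *CDYL* ranked 28 and 161. *CDYL* in 6AN sat at the edge of the rule, with an R2 of 0.6409 against a threshold of 0.6406. The genes just outside, by the lower of their R2 values, were *ARID5B* at 0.616 and *C2orf69* at 0.612. Leaving out each time point in turn, with the threshold set anew for 11 time points, kept *PLAT* past it in all 12 cases in control and 11 in 6AN. For *AKAP12* it was passed in 3 cases in control and 8 in 6AN, and for *CDYL* in 12 and 3. With a linear trend removed, *AKAP12* fell short in both conditions (0.585 and 0.625, against a threshold of 0.684) and *CDYL* in 6AN (0.658), while *PLAT* rose to 0.882 in 6AN.

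The shift of the wave between conditions was not part of the choice, though the size of each wave against its scatter was. The estimated shifts divided the 3 genes. The *PLAT* wave was later in 6AN by 11.5 hr (SE 1.06) and the *AKAP12* wave by 10.3 hr (SE 1.57), on a 24 hr circle on which 12 hr is the largest possible shift, so that a delay of this size and an advance of the rest of the circle cannot be told apart. The *CDYL* wave differed by -1.13 hr (SE 1.29). From the errors of the cosine fits, the 95% interval of the difference was 9.36 to 13.7 hr for *PLAT*, 7.60 to 12.9 hr for *AKAP12*, and -3.66 to 1.40 hr for *CDYL*. Limits above 12 hr are counted on around the circle from the estimate and stand for advances of less than 12 hr. The *CDYL* interval holds 0 and ends below those of the other genes. Because the genes were picked for small scatter around the cosine, these intervals may be too narrow. The shifts of the 3 genes were not tested against each other.

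The difference between waves was tested with limma over all expressed loci, as a moderated F test of the terms that let the cosine differ between conditions. Each condition had its own constant, so that a scale difference between the separately normalized conditions cancels. The test called 7 loci at a Benjamini-Hochberg adjusted p of at most 0.05 (0.0477%), and *PLAT* was the only one of them outside the clock list, with the fifth smallest p (F = 24.5, p = 4.45e-06, adjusted p = 0.0121, n = 12 libraries per condition). *AKAP12* had the ninth smallest p but did not pass after adjustment (p = 8.30e-05, adjusted p = 0.135, n = 12). It was past an unadjusted p of 0.01, as were 0.838% of loci. *CDYL* did not pass (p = 0.691, adjusted p = 0.999991, n = 12). A gene picked for waves that are large against their scatter brings both a large wave and a small error to this test. For such a gene, p depends mainly on how far apart the peaks lie, so p is not independent of the choice. The 12 libraries of a condition are single time points and not replicates, so p does not hold the variation between cultures.

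The *PLAT* call rested on single time points. Its adjusted p in limma became 0.122 when 4 hr was left out, 0.0512 without 12 hr, 0.110 without 36 hr, and 0.0771 with 40 hr left out. The value was 0.0886 with time point as a block, 0.0807 on the linear FPKM scale, and 0.000989 with a linear trend in each condition. In every one of these fits the unadjusted p stayed at or below 6.03e-05.

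The other 6 genes past the R2 threshold in both conditions were all clock genes, and all 6 passed the same limma test. The choice by R2 favours such a pass where the peaks lie apart. The 6 clock genes moved by 9.28 hr (*TEF*) to 11.4 hr (*CRY1*) with a median of 10.4 hr. *AKAP12* lay inside this range, *PLAT* within its error of it, and *CDYL* outside it. Set against the *ARNTL* peak, which was at 11.3 hr in control and 22.1 hr in 6AN, *PLAT* peaked 2.81 hr (SE 0.67) later in control and 3.47 hr (SE 0.81) later in 6AN. *AKAP12* peaked 5.26 hr (SE 1.27) and 4.67 hr (SE 1.51) after *ARNTL*. *CDYL* peaked 6.90 hr (SE 1.08) after *ARNTL* in control and before it in 6AN, with a difference of -5.08 hr (SE 1.204). The swing of the 6 clock genes was wider than that of *AKAP12* and *CDYL*, at 0.46 to 0.88 in control and 0.72 to 1.44 in 6AN on the log2 scale, and *PLAT* lay within both ranges.

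**Figure D2:**
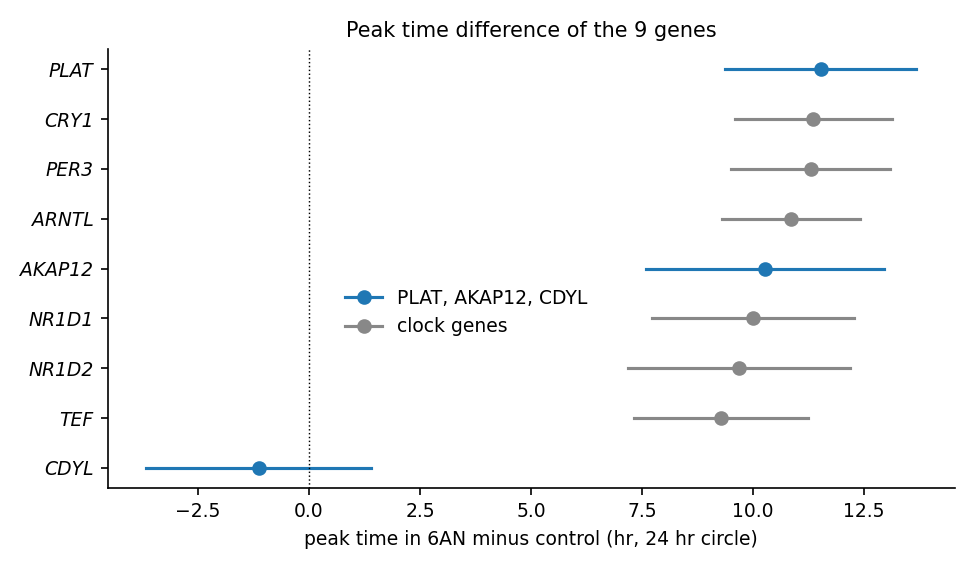
Peak time of the 24 hr cosine in 6AN minus that in control, in hr (x axis), for the 9 genes past the R2 threshold in both conditions, with points for the estimate and bars for its 95% interval from the cosine fits. Bars past 12 hr are counted on around the 24 hr circle. *PLAT* (11.5 hr) and *AKAP12* (10.3 hr) lie with the 6 clock genes, from 9.28 to 11.4 hr, and the interval of *CDYL* (-1.13 hr) holds 0.

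A period fitted with a linear trend on a grid from 16 to 32 hr gave 23.2 hr (SE 1.95) in control and 25.3 hr (SE 0.55) in 6AN for *PLAT*. For *CDYL* it gave 22.3 hr (SE 1.12) and 25.1 hr (SE 2.24). For *AKAP12* it gave 23.4 hr (SE 5.77) and 22.6 hr (SE 6.63), which is too wide to place the period. *ARNTL* had 22.7 hr (SE 1.17) and 25.8 hr (SE 0.98) by the same fit. The rule favours periods near 24 hr. Peak times were taken from a cosine held at 24 hr in both conditions. A difference in period also moves such a peak, so the shifts given above do not separate phase from period.

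The mean level differed most for *AKAP12*, which averaged 23.7 FPKM in control and 13.3 FPKM in 6AN, a log2 ratio of -0.83 (SE 0.09). It was lower in 6AN at all 12 time points, by log2 ratios from -0.34 at 4 hr to -1.28 at 16 hr. The lowest ratio stood at the time of the highest control value. Of all expressed loci, 19.8% were lower at all 12 time points and 9.93% had all 6AN values under all control values, as *AKAP12* did, and 7.48% had a log2 ratio at or below that of *AKAP12*. *CDYL* averaged 10.4 and 11.6 FPKM, a log2 ratio of 0.15 (SE 0.03), and was higher in 6AN at all 12 time points, as were 12.6% of loci, though at 4 hr the ratio was only 0.005. *PLAT* averaged 94.3 and 98.6 FPKM, a log2 ratio of 0.07 (SE 0.20). It was higher in 6AN at 6 time points and lower at 6, from a log2 ratio of 1.12 at 0 hr to -0.95 at 36 hr. Levels were not tested, because control and 6AN values were normalized separately. The median log2 ratio over all expressed loci was -0.045. In bulk RNA, fewer cells that express a gene and less RNA per cell cannot be told apart.

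**Figure D3:**
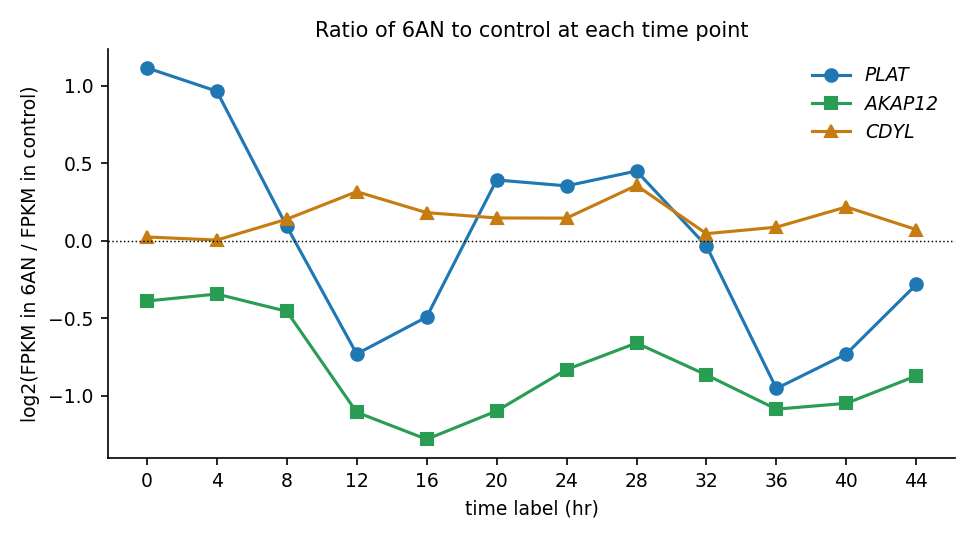
Log2 ratio of FPKM in 6AN to FPKM in control (y axis) at each labelled time in hr, 1 library per condition and point, for *PLAT* (circles), *AKAP12* (squares), and *CDYL* (triangles), with a dotted line at 0. *AKAP12* stays below 0 with its lowest ratio, -1.28, at 16 hr, *CDYL* stays above 0, and *PLAT* runs from 1.12 to -0.95.

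Over time, *AKAP12* and *PLAT* went together. After centring within each condition, Pearson's r of log2(FPKM + 1) over the 24 libraries was 0.72, and it was 0.74 over the 12 control and 0.72 over the 12 6AN libraries. *CDYL* and *AKAP12* had r of 0.56 in control and -0.57 in 6AN, and *CDYL* and *PLAT* 0.30 and -0.36. These values share libraries and their depth and describe the same waves as the peak times.

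By the same measure over 24 libraries, the expressed genes most like *PLAT* were *EMP1* (r = 0.87), *LPCAT3* (0.84), a lysophospholipid acyltransferase, and *GSN* (0.82), the actin-severing protein gelsolin. Among those most like *AKAP12* were *TIAM1* (0.82), an activator of the GTPase RAC1, and *ATP9A* (0.74). Those most like *CDYL* were *GLIPR1* (0.73), *LSM12* (0.64), and *TMEM263* (0.63). The peaks of *EMP1* were at 16.1 hr in control and 1.61 hr in 6AN and those of *TIAM1* at 15.1 and 1.80 hr, while those of *GLIPR1* stayed at 17.9 and 18.3 hr. None of these genes passed the R2 threshold in both conditions. *GLIPR1* passed it in control (0.757) and had 0.504 in 6AN.

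Few other genes of the pathways of these 3 genes passed the R2 threshold, as few loci did overall. In the plasminogen list, 10 of 12 genes besides *PLAT* were expressed, with 0 past the R2 threshold in control, and 0 passed the limma test at an adjusted p of at most 0.05 or at p of at most 0.01. *PLAU*, the gene of urokinase, the other plasminogen activator, ranged from 24.97 through 30.4 to 35.99 FPKM in control and from 5.11 through 8.67 to 12.4 FPKM in 6AN, with no overlap. *PLAU*, *ANXA2*, and *S100A10*, of which *ANXA2* and *S100A10* encode the partners of a cell-surface complex that binds plasminogen, were the 3 genes lower at all 12 time points, with log2 ratios of -1.84, -1.04, and -0.96, where 19.8% of all expressed loci were lower throughout. The receptor gene *PLAUR* had 46.4 and 46.1 FPKM. *PLG*, the gene of plasminogen itself, averaged 0.062 and 0.061 FPKM, under the minimum.

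In the list of A-kinase anchoring proteins and protein kinase A subunits, 16 of 20 genes besides *AKAP12* were expressed. *AKAP9*, the scaffold at the centrosome and Golgi, was the 1 gene past the R2 threshold in control (0.658), and it had 0.187 in 6AN, where 0 passed. None passed the limma test at an adjusted p of at most 0.05 or at p of at most 0.01. At all 12 time points, 4 were lower in 6AN (*PRKACB*, *AKAP5*, *AKAP8*, *AKAP9*) and 2 were higher (*AKAP2*, *AKAP8L*), counts near the shares over all expressed loci of 19.8% lower and 12.6% higher. The catalytic subunit gene *PRKACB* had a log2 ratio of -0.96, close to the -0.83 of *AKAP12*, and *PRKACA* had -0.21. *AKAP2*, whose locus in the annotation also holds *PALM2*, lay on the opposite side, at 30.9 FPKM in control and 58.1 FPKM in 6AN. The median log2 ratio of the 16 genes was -0.21, against -0.045 over all expressed loci.

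All 12 corepressor partners of *CDYL* were expressed. *SUZ12*, a core subunit of a Polycomb repressive complex, was the 1 past the R2 threshold in control (0.690), and it had 0.050 in 6AN, where 0 passed, and 0 passed the limma test at either threshold. *CDYL2*, the closest relative of *CDYL*, and *REST*, the repressor that recruits CDYL, were higher in 6AN at all 12 time points, with log2 ratios of 0.72 and 0.45. *SUZ12*, *HDAC2*, and *EZH2* were lower at all 12, with -0.30, -0.24, and -0.86. These counts of 2 higher and 3 lower among 12 genes are also near the shares over all expressed loci, 12.6% and 19.8%. The methyltransferase genes *EHMT1* and *EHMT2* had 0.15 and -0.18. By contrast, of 17 expressed clock genes of 20, 6 passed the R2 threshold in control and 10 in 6AN, and 6 passed the limma test after adjustment.

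**Figure D4:**
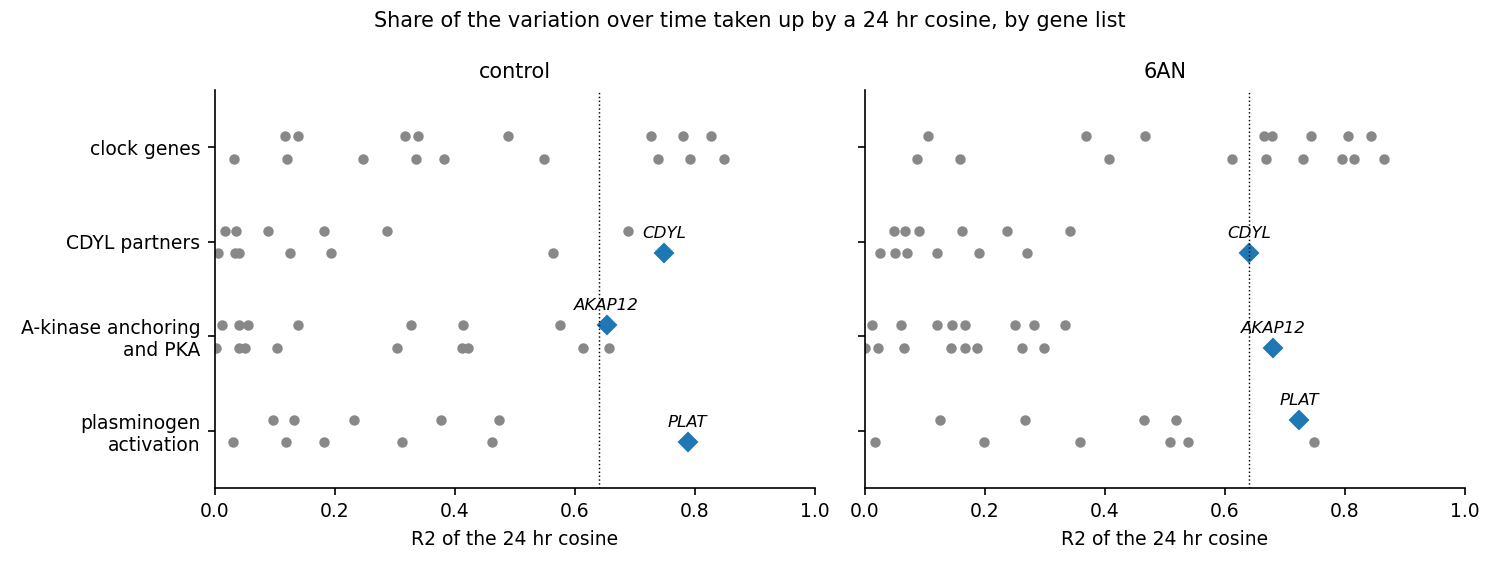
R2 of the 24 hr cosine (x axis, from 0 to 1) of each expressed gene of 4 lists (rows) in control (left) and 6AN (right), with *PLAT*, *AKAP12*, and *CDYL* as diamonds and the threshold of 0.641 as a dotted line. In control, 1 circle in the *CDYL* row and 1 in the A-kinase row pass it.

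Binding of BMAL1 and CLOCK was measured by ChIP-seq after 24 hr of incubation, with 1 library per antibody and condition. Whether this time matches the labelled 24 hr of the RNA is not given here. A single time cannot show binding at other phases of the cycle, and the conditions may differ in phase at it. None of 4001 merged BMAL1 and CLOCK peaks lay inside the locus of *AKAP12*, of *CDYL* (hg38 chr6:4706158-4955544), or of *PLAT* (hg38 chr8:42174717-42207676), and neither did any site shared by both factors (147 in control and 439 in 6AN). For *CDYL* the nearest merged peak was 902311 bp away and for *PLAT* 122485 bp away. For *AKAP12* it was 93530 bp away (chr6:151452091-151452320), called for both factors in 6AN, at the promoter of *RMND1*. At the 1000 bp site around it, the signal, in tags per 10000000, for BMAL1 was 29.5 in control and 48.8 in 6AN, and for CLOCK 15.9 and 47.2, over inputs of 10.5 and 14.0. H3K4me3 was 276 and 273 there, and H3K9ac 110.0 and 109. Signal at the E-boxes of *AKAP12* themselves was not analysed here, since the signal tables cover shared sites only.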

How the data were processed

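RNA-seq of *Bmal1*:*luc* U2OS cells was taken as the authors deposited it, in FPKM per locus on hg38, with control and 6AN normalized separately. The submitters' processing notes name Bowtie, TopHat, Cufflinks, Bowtie2, and HOMER, with versions not given in the sources used here. RNA is stated to have been extracted in triplicate, and pooling is not stated. For ChIP-seq the authors deposited HOMER signal at shared sites, in tags per 10000000 over 1000 bp, and a peak score for each merged peak, read here only for peak positions. All per-sample columns were mapped, so 0 were left out.

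Loci with a mean of at least 0.7 FPKM were kept. Values were log2(FPKM + 1), and differences on this scale are slightly smaller than log2 ratios of FPKM. A 24 hr cosine was fitted in each condition in NumPy 2.4.6 and SciPy 1.17.1 under Python 3.11.15, with pandas 2.3.3 for the tables. The R2 threshold is the value at which an F test against a constant reaches the 0.01 level. Waves were compared between conditions with limma 3.58.1 in R 4.3.3, with Benjamini-Hochberg adjustment over 14678 loci. Plots used matplotlib 3.10.9. In a test on simulated data for this comparison, with 14678 genes, 88 of 100 waves of 2 SD moved by 10 hr were called after adjustment, 9 of 100 waves of 1 SD, and 0 of 100 waves of 2 SD that were not moved.

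The 3 genes and the gene lists were chosen with earlier results of these data known. Besides these, the genes named were the others past the R2 threshold in both conditions, the nearest to it, the 3 most like each of the 3 genes, and members of the lists. Results for some genes under this rule are not reported here.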

Additional observations from a re-analysis of the deposited data

Results flagged for a closer look

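The 24 hr wave of *PLAT* differed between 6AN and control by the limma test of the difference, with an adjusted p of 0.0121 over all expressed loci and a shift of 11.5 hr (SE 1.06). *PLAT* was picked for its wave in both conditions, which favours a small p in this test where the peaks lie apart. The FPKM in 6AN was above control at 0, 4, 20, 24, and 28 hr and below it at 12, 16, 36, 40, and 44 hr, with the remaining time points within 0.1 of each other on the log2 scale. No group held more than 1 library, so single libraries could not be compared with others of their group.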

How the results depend on the processing

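The adjusted p of *PLAT* in the limma test (0.0121) passed 0.05 with a pseudocount of 0.1, with other filters on low FPKM, and with a linear trend, and missed it at 0.0807 on the linear FPKM scale and at 0.0886 with time point as a block. The causes were not tested. Leaving out each time point gave 0.00791 to 0.122 for *PLAT*, 0.123 to 0.884 for *AKAP12*, and 1 for *CDYL*, and 4 to 6 called loci in place of 7, with 4 without 4 hr and 4 without 40 hr. Peak time differences without each time point ran from 10.9 to 12.01 hr for *PLAT*, 9.27 to 10.8 hr for *AKAP12*, and -1.73 to -0.29 hr for *CDYL*. Values above 12 hr are counted on around the circle. Log2 ratios of level ran from -0.87 to -0.79 for *AKAP12*, 0.13 to 0.16 for *CDYL*, and -0.06 to 0.15 for *PLAT*, whose direction thus depended on single time points. Dividing 6AN by the median ratio of all expressed loci moved the *CDYL* ratio to 0.19. The labels give no replicate numbers, so the conditions could be paired only by time point, as in the fit with time point as a block. With 1 library per time point and depth known only in relative terms, culture variation and counting error were not measured.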
